A study of Pinus pinaster with 36 samples.

Results

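The stem-specific transcripts of maritime pine (Pinus pinaster) seedlings are 199 of the 224081 transcript identifiers in the deposited count table, or 0.0888% of them. A transcript was a member when its mean level over the 12 stem libraries was at least 1 and under 500 CPM and over 8 times its mean in needles and over 8 times its mean in roots. CPM is the count divided by the library total and multiplied by 1000000. A limit of 300 members was set and was not reached. Members were thus selected on their measured organ means, and the organ differences below are given as a description, without a test. The table pairs no identifier with a gene name, so members are given by identifier, no function is attached to them and no sequence is printed. For the same reason the stem could not be checked against marker genes of its tissues.

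The stem of a young conifer carries water upward in xylem and sugars downward in phloem. Both are made by the vascular cambium, and the water-conducting tracheids lay down thick walls of cellulose and lignin before they die. Around them lie the cortex, with resin ducts that make and store terpenes, and a protective surface layer. Roots share much of this vascular tissue, and needles hold veins within photosynthetic tissue, so a transcript made only in vascular cells need not be specific to the stem.

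RNA sequencing covered stem, needles and roots of seedlings aged 2 months that had received ammonium chloride or potassium nitrate, both at 8 mM, for 1 month. The air held 720 or 400 ppm CO2. Each organ thus had 4 groups of 3 biological replicates: ammonium at 720 ppm, ammonium at 400 ppm, nitrate at 720 ppm and nitrate at 400 ppm. Each replicate pooled 12 seedlings and gave all 3 organs, so the 36 libraries come from 12 pools, and differences between single seedlings are not seen. All seedlings came from 1 provenance, Segura-Alcaraz. No group went without nitrogen, and the counter-ions, chloride and potassium, changed with the nitrogen form, so nitrogen form and these ions cannot be told apart. The labels name no growth chamber or tray, so a chamber that went with a group cannot be told apart from its CO2 level.

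Library totals ran from 76082457 to 111368507 counts in stem, from 73414247 to 134836160 in needles and from 76221102 to 120587917 in roots. In 7 of the 36 libraries more than 65% of the counts above 20 were even numbers. They are called low-complexity libraries here, which is a name only, as the source of the even counts was not tested. In stem they were ammonium at 400 ppm replicates 1 and 2 and nitrate at 720 ppm replicate 1, and in these 3 libraries 5 to 9 members had 0 counts, against 0 to 1 members in the other 9 stem libraries. Another 4 were needle libraries, and none was a root library. The cut of 65% is a choice, and some libraries lay just under it. Roots with ammonium at 720 ppm replicate 1 had 64.4%, stem with ammonium at 720 ppm replicate 3 had 63.0% and needles with ammonium at 400 ppm replicate 3 had 62.2%. The stem spreads, summed levels, correlations within stretches and nitrogen and CO2 comparisons below are also given without the 3 stem libraries.

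The members spanned a wide range of stem levels. Their stem mean had a median of 3.80 CPM and ran from 1.01 to 195 CPM. Only 2 members reached 100 CPM, 41 lay between 10 and 100 CPM, 37 between 5 and 10 CPM, 56 between 2 and 5 CPM and 63 between 1 and 2 CPM. Their needle means ran from 0 to 5.43 CPM with a median of 0.142 CPM, and their root means from 0.0102 to 11.8 CPM with a median of 0.203 CPM. CPM is not divided by transcript length, which was not used here, so this order is one of counts and not of molecules.

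The ratio of the stem mean to the mean of the next organ had a median of 13.9 and ran from 8.02 to 161. It was over 16 for 77 members, over 32 for 29, over 64 for 14 and over 100 for 4. The next organ was the root for 117 members and the needle for 82. In 161 members the lowest of the 12 stem libraries lay above the highest of the 24 needle and root libraries, against 3.88% of all 64280 transcripts with a stem mean of 1 to under 500 CPM, and since the rule used this contrast nothing is read from that count. In bulk RNA, fewer cells of a type and less RNA per cell cannot be told apart, so a ratio between organs can be either.

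**Figure D1:**
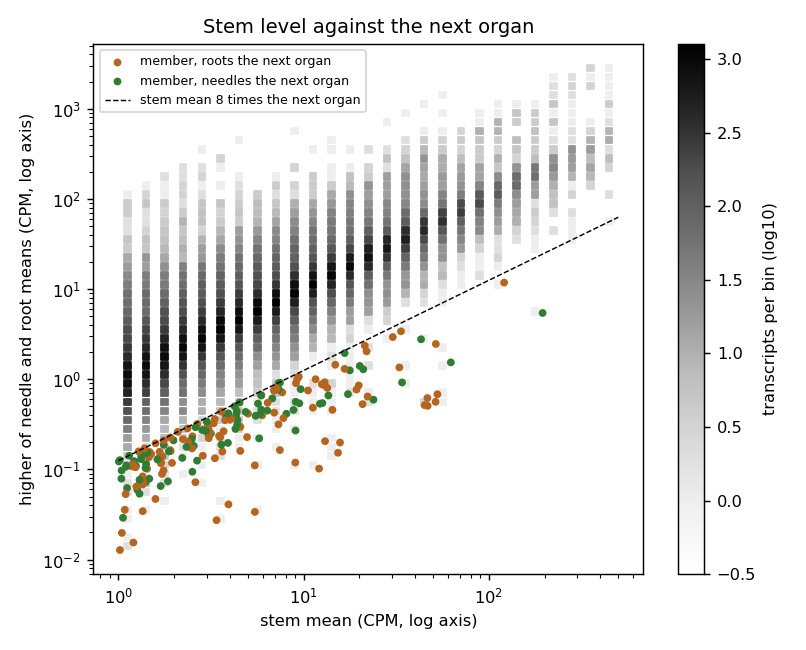
Mean level in stem (x axis, CPM, log scale) against the higher of the needle and root means (y axis, CPM, log scale) for transcripts with a stem mean of 1 to under 500 CPM, with the number of transcripts per bin in grey and the 199 members as points coloured by the next organ. The members lie under the dashed line at 8 times the next organ, 117 with roots and 82 with needles next.

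Near the threshold of 8 times the next organ, PpCO2_149462 was inside with a ratio of 8.02, and PpCO2_161951 was outside with a ratio of 7.998. Near 1 CPM, PpCO2_124869 was inside with a stem mean of 1.005 CPM, and PpCO2_121777 was outside with 0.986 CPM. Of 1357 transcripts over 8 times both other organs at any level, 1158 lay under 1 CPM in stem and 0 at 500 CPM or above. The same rule turned to the other organs found 1539 transcripts for needles and 5146 for roots. Their own-organ means summed to 36500 CPM and 47123 CPM, against 1862 CPM for the 199 stem members. The median ratio to the next organ was 22.7 for the needle list and 53.9 for the root list, against 13.9 for the stem members. Scaling by TMM, which sets libraries by their bulk of transcripts, moved the log2 ratio of stem over needles by -0.53 and that of stem over roots by -0.04, and 151 of the 199 members then still met the rule.

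The member with the highest stem mean, PpCO2_101766, had 157 to 290 CPM in stem with a median of 183 CPM. In needles it had 4.38 to 8.27 CPM with a median of 5.32 CPM, and in roots 0.0970 to 3.68 CPM with a median of 0.966 CPM. All 12 stem libraries lay above all needle and root libraries, as they did for the next 3 members. PpCO2_8277 had 89.7 to 165 CPM in stem with a median of 115 CPM, 0.981 to 7.13 CPM in needles and 9.43 to 15.5 CPM in roots.

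PpCO2_101764, whose number is close to that of the leading member, had 46.8 to 90.2 CPM in stem, 0.570 to 2.52 CPM in needles and 0.0242 to 1.04 CPM in roots. PpCO2_8276, next in number to PpCO2_8277, had 23.2 to 74.97 CPM in stem, 0 to 0.178 CPM in needles and 0 to 1.85 CPM in roots. Outside the stem these neighbours differed, with PpCO2_8277 above 0 in every needle and root library and PpCO2_8276 at 0 in some of both. The 10 leading members held 38.4% of the summed stem level of all members, and the first held 10.5%.

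No member was absent from both other organs. In needles 7 members had 0 counts in all 12 libraries, which allows up to 0.00275 CPM (3 counts over the 12 libraries, counting error only), and their stem means ran from 1.02 to 51.6 CPM. The member at 51.6 CPM was PpCO2_171766, which was chosen for mention after its values were seen. It had 22.8 to 77.1 CPM in stem and 0.0515 to 1.49 CPM in roots. In roots no member had 0 counts in all 12 libraries. Counts were above 0 in all 12 libraries of the organ for 178 members in stem, 42 in needles and 105 in roots. Each needle library had 21 to 114 members at 0 counts and each root library 7 to 53.

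**Figure D2:**
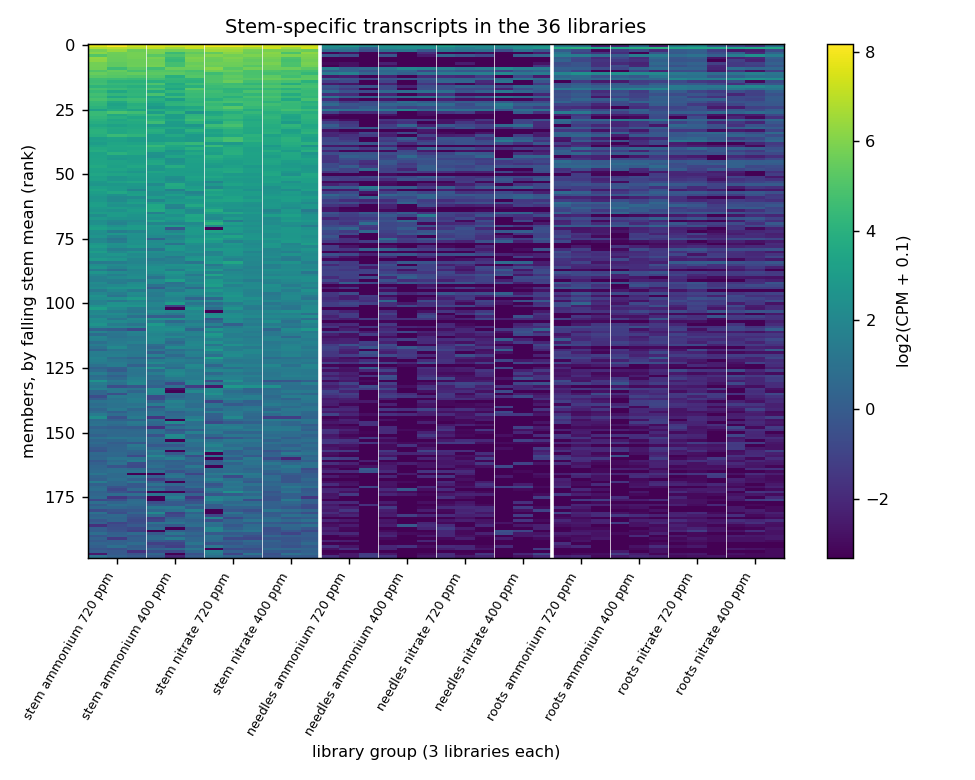
Level of the 199 members (rows, by falling stem mean) in the 36 libraries (columns, 3 per group) as log2(CPM + 0.1), where dark is low. The stem columns are bright for the leading members down to the lowest, and the short dark marks in the stem columns are members at 0 counts, 5 to 9 in each of the 3 low-complexity stem libraries and 0 to 1 in each of the others.

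Many members had neighbouring numbers in their identifiers. Of the 199, 94 members (47.2%) stood in 29 runs of 2 or more consecutive numbers, the longest of 8. With members joined when their numbers were within 10 of each other, 133 members fell into 40 stretches and 66 stood alone. The 4 stretches with the highest summed level held 18 members and 44.0% of the summed stem level. Whether neighbouring numbers stand for variants of 1 gene, between which reads could be shared, was not known, so the 199 identifiers may not be 199 independent genes.

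The leading stretch, numbers 101764 to 101767, held 4 members with 300.6 CPM in stem, 8.15 CPM in needles and 2.07 CPM in roots. The 5 members numbered 8276 to 8280 summed to 244.6 CPM in stem, 4.38 CPM in needles and 14.5 CPM in roots. The 5 members numbered 171766 to 171770 summed to 172 CPM in stem, 0.0450 CPM in needles and 1.99 CPM in roots. The order of needles and roots thus differed between these 3 stretches. The largest stretch by number, 70209 to 70232, held 15 members with 75.9 CPM in stem, 5.26 CPM in needles and 3.27 CPM in roots.

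The transcripts directly beside members in number, but not members themselves, numbered 253. Of these, 139 (54.9%) had their highest organ mean in stem, against 35.9% of all identifiers. Of the 253, 162 lay under 1 CPM in stem and 28 were over 8 times both other organs. Members of 1 stretch also moved together across the 12 stem libraries. The Spearman correlation of their stem levels had a median of 0.573 over 259 pairs within a stretch, with quartiles of 0.318 and 0.755. Over the 19442 other pairs of members the median was 0.035, with quartiles of -0.203 and 0.273. Over the 9 stem libraries that were not of low complexity the medians were 0.583 within a stretch and 0.033 for the other pairs. The largest stretch, of 15 members, gives more of the pairs than any other stretch, and no median was taken per stretch. The pairs share libraries and their depth, so these values are a description.

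Members varied more between stem libraries than most transcripts did. The SD of log2(CPM + 0.1) between replicates, pooled over the 4 groups, had a median of 0.379 over the 43 members at 10 CPM or more, against 0.174 over all 20053 transcripts of that level. At 5 to 10 CPM it was 0.353 for the 37 members against 0.243 for all. At 2 to 5 CPM it was 0.504 for the 56 members against 0.343 for all, and at 1 to 2 CPM 0.636 for the 63 members against 0.534 for all. Without the 3 low-complexity libraries the medians at 10 CPM or more were 0.349 for the members and 0.143 for all. At 5 to 10 CPM they were then 0.285 for the members and 0.181 for all, at 2 to 5 CPM 0.348 for the members and 0.243 for all, and at 1 to 2 CPM 0.431 for the members and 0.343 for all. Over all 12 libraries of the organ, the SD at 10 CPM or more had a median of 0.426 for the stem members, 0.224 for the 540 transcripts of the needle list and 0.424 for the 996 of the root list, against 0.187, 0.186 and 0.167 for all transcripts of that level in stem, needles and roots.

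**Figure D3:**
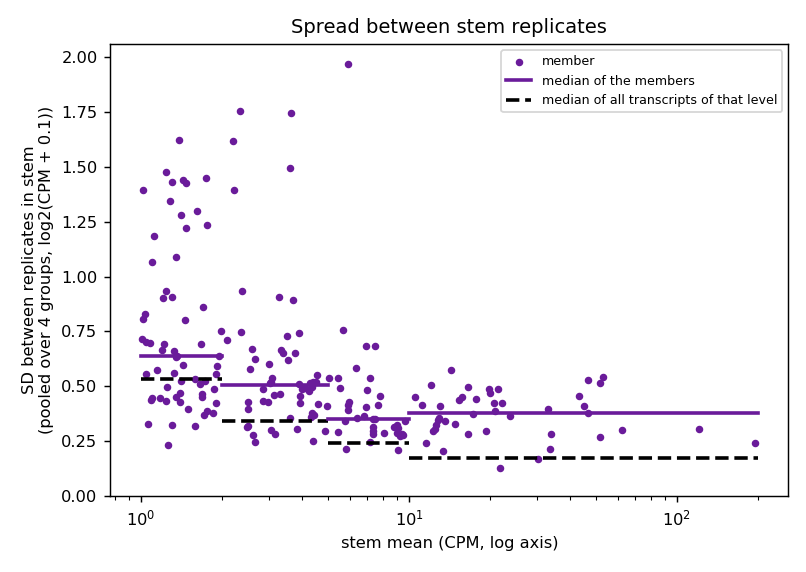
SD between stem replicates of log2(CPM + 0.1), pooled over the 4 groups (y axis), against the stem mean (x axis, CPM, log scale), with 1 point per member. The solid lines are the medians of the members and the dashed lines the medians of all transcripts of that level, which at 10 CPM or more are 0.379 and 0.174.

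The 2 steadiest members over the 12 stem libraries were PpCO2_112590, with 4.49 to 7.13 CPM and an SD of 0.195 on the log2 scale, and PpCO2_5653, with 2.00 to 3.69 CPM and an SD of 0.232. Without the low-complexity libraries PpCO2_112590 had an SD of 0.220 and ranked 14 among the members, and PpCO2_5653 had 2.00 to 3.005 CPM and an SD of 0.173 and ranked 4. The most variable member was PpCO2_144511, with an SD of 1.92. It had 0 CPM in nitrate at 720 ppm replicate 1 and 0.754 CPM in ammonium at 400 ppm replicate 2, both low-complexity libraries. In the 9 stem libraries outside that class it had 5.66 to 9.32 CPM, with an SD of 0.240. PpCO2_4921 had an SD of 1.73 and kept 1.13 without the low-complexity libraries. It had 0 to 1.16 CPM in ammonium stems and 0.708 to 5.46 CPM in nitrate stems, ranges that overlap.

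The summed level of the members was 1867 ± 126 CPM with ammonium at 720 ppm, 1702 ± 216 CPM with ammonium at 400 ppm, 2041 ± 191 CPM with nitrate at 720 ppm and 1839 ± 133 CPM with nitrate at 400 ppm (SD, n = 3 each). The ranges of the groups overlapped. Low-complexity libraries were 2 of the 3 with ammonium at 400 ppm, at 1771 and 1460 CPM, and the other library of that group had 1874 CPM. With nitrate at 720 ppm the low-complexity library had 2104 CPM and the others 2193 and 1827 CPM. The order of the group means thus rests in part on these libraries. Over all 12 stem libraries the sum was 1862 ± 193 CPM (SD), or 0.186 ± 0.0193% of the counts, against 63.6 ± 5.79 CPM in needles and 81.4 ± 12.9 CPM in roots (SD, n = 12 each).

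The stretches 8276 to 8280 and 171766 to 171770 had their lowest sums in the same 2 stem libraries, which differ in nitrogen form. Both libraries were at 400 ppm and were replicate 2. The stretch 8276 to 8280 summed to 157 CPM in ammonium at 400 ppm replicate 2 and 167 CPM in nitrate at 400 ppm replicate 2, against 215 to 331 CPM in the 10 other stem libraries. The stretch 171766 to 171770 was lowest in the same 2 libraries, with 85.2 CPM in the ammonium library and 107 CPM in the nitrate library, against 151 to 240.1 CPM in the others. The ammonium library is of low complexity and the nitrate library is not. The leading stretch, 101764 to 101767, was not lowest there, with 263 CPM in the ammonium library and 264 CPM in the nitrate library, within its range of 237 to 426 CPM. What set these libraries apart was not tested.

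Nitrogen form was then compared within the stem, as the ammonium groups over the nitrate groups averaged over both CO2 levels. All 199 members were tested among 137689 transcripts with edgeR's quasi-likelihood test, and an adjusted p under 0.05 was called. Of the members 6 were called (3.015%), all lower with ammonium. Over all transcripts tested 0.28% were called, 0.152% lower and 0.128% higher, and among the 64280 at 1 to under 500 CPM 0.548% were called, 0.282% lower and 0.266% higher. The 6 stood in 3 places by number: 3 of the 4 members from 9875 to 9881, both members at 90737 and 90738, and 173276 alone. The count was 2 without the 3 low-complexity libraries, which leaves 1 library of ammonium at 400 ppm, assumed to vary like the others. Of all transcripts 0.202% were then called. The count was 11, with 1 higher, without ammonium at 400 ppm replicate 3, where 0.589% of all were called, 12, with 1 higher, by DESeq2, against 0.969% of all, and 9, with 1 higher, by limma-voom, against 0.328% of all.

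PpCO2_9875 had 11.4, 9.45 and 11.4 CPM in ammonium stems at 720 ppm, 7.68, 7.76 and 6.22 CPM in ammonium stems at 400 ppm, 23.9, 28.3 and 13.8 CPM in nitrate stems at 720 ppm and 13.9, 18.1 and 11.2 CPM in nitrate stems at 400 ppm. At each CO2 level all 3 ammonium libraries lay below all 3 nitrate libraries, and over both levels 1 nitrate library fell within the ammonium range. It averaged 8.996 ± 2.15 CPM in ammonium stems and 18.2 ± 6.66 CPM in nitrate stems (SD, n = 6 each), a log2 fold change of -1.003 (edgeR adjusted p = 0.00773, SE 0.155). Without the low-complexity libraries the change was -1.08 and the call was lost, with an adjusted p of 0.21, the highest of its 18 alternatives.

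PpCO2_9881 had 9.45, 9.58 and 8.10 CPM in ammonium stems at 720 ppm, 7.60, 8.22 and 6.88 CPM in ammonium stems at 400 ppm, 17.5, 28.6 and 16.4 CPM in nitrate stems at 720 ppm and 12.2, 16.2 and 9.47 CPM in nitrate stems at 400 ppm. Within each CO2 level the ammonium and nitrate libraries did not overlap. Its log2 fold change was -0.96 (edgeR adjusted p = 0.00982, SE 0.153), and among 18 alternatives the call was lost without the low-complexity libraries alone, with an adjusted p of 0.11. All 4 members of that stretch lay below 0, with log2 fold changes from -1.05 to -0.91.

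PpCO2_90738 was lower with ammonium in stem and in roots. In stem it had 25.0, 23.2 and 21.2 CPM with ammonium at 720 ppm, 25.2, 19.6 and 18.3 CPM with ammonium at 400 ppm, 30.8, 37.6 and 36.6 CPM with nitrate at 720 ppm and 46.0, 41.4 and 38.4 CPM with nitrate at 400 ppm. All 6 ammonium stems lay below all 6 nitrate stems, and the log2 fold change was -0.79 (edgeR adjusted p = 0.00146, SE 0.0996). In roots it averaged 1.503 ± 0.243 CPM in ammonium roots and 4.37 ± 1.19 CPM in nitrate roots (SD, n = 6 each), with no overlap and a log2 fold change of -1.55 (edgeR adjusted p = 4.39e-06, SE 0.131). Both calls held under every alternative run for it, 18 in stem, with adjusted p up to 0.00869, and 17 in roots, with adjusted p up to 2.31e-05. Whether its stem and root changes differ was not tested.

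**Figure D4:**
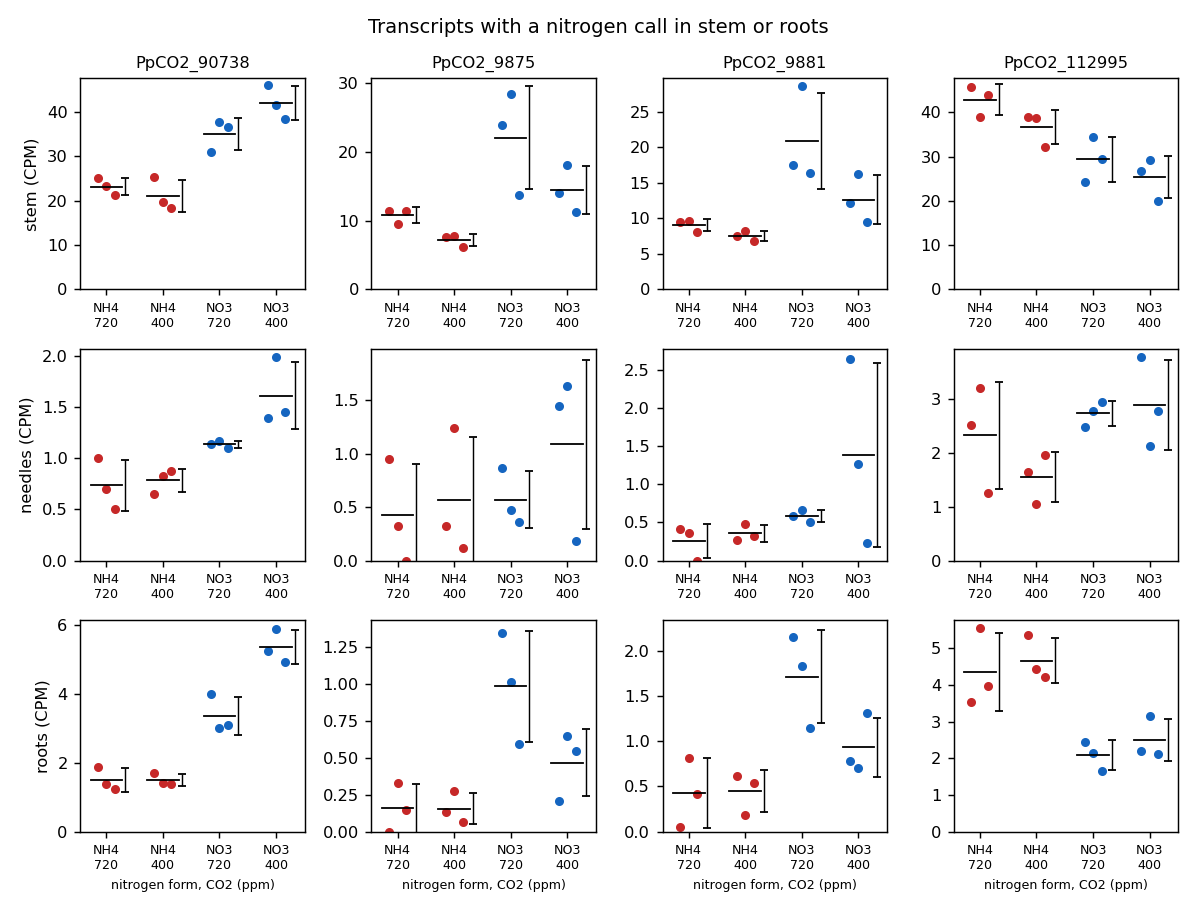
Level in CPM (y axes, linear from 0, each panel with its own range) of 4 transcripts (columns) in stem, needles and roots (panel rows) by nitrogen form and CO2 level, with 1 point per library, a line at the mean and a bar of ± SD (n = 3), NH4 for ammonium and NO3 for nitrate. PpCO2_90738 has all 6 ammonium libraries below all 6 nitrate libraries in stem and in roots, and PpCO2_112995 has its ammonium libraries above its nitrate libraries in roots.

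PpCO2_173276, the only one of the 6 stem calls without a neighbouring member, was chosen for mention after its values were seen. Its log2 fold change was -0.73 (edgeR adjusted p = 0.0381, SE 0.139) in stem and -0.03 (edgeR adjusted p = 0.969, SE 0.293) in roots. The stem call was lost without any one of ammonium at 400 ppm replicates 1 and 2, ammonium at 720 ppm replicates 1 and 3, nitrate at 400 ppm replicates 2 and 3, and nitrate at 720 ppm replicates 1 and 2, with adjusted p from 0.0695 to 0.134. Without the 3 low-complexity libraries the adjusted p was 0.551.

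No member was called higher with ammonium in stem. PpCO2_112995, with the lowest p among the members above 0, had 45.7, 39.0 and 43.8 CPM in ammonium stems at 720 ppm, 39.0, 38.8 and 32.2 CPM in ammonium stems at 400 ppm, 24.2, 34.4 and 29.5 CPM in nitrate stems at 720 ppm and 26.7, 29.3 and 20 CPM in nitrate stems at 400 ppm. The groups overlapped by 1 library on each side. Its log2 fold change was 0.55 (edgeR adjusted p = 0.0587, SE 0.110). It was called in 5 of 18 alternatives, among them DESeq2 and limma-voom, and over all of them the adjusted p ran from 0.000291 to 0.559, the highest without the low-complexity libraries.

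A larger share of the members than of all stem transcripts had a low unadjusted p for nitrogen form. An unadjusted p under 0.05 was reached by 46 members (23.1%), against 5.2% of all transcripts tested and 8.46% of those at 1 to under 500 CPM. These 46 include the 6 called members and stand in 25 places by number. The median size of the log2 fold change, without its sign, was 0.30 for the members, 0.27 for all transcripts tested and 0.13 for those at 1 to under 500 CPM. Without the low-complexity libraries it was 0.28 for the members and 0.28 for all transcripts tested. With its sign the median was -0.13 for the members, -0.03 for all tested and -0.002 for those at 1 to under 500 CPM. Below 0 lay 120 members and above 0 lay 79 (39.7%), against 46.03% of all tested above 0. Without the low-complexity libraries the signed median of the members was -0.02, with 97 members above 0.

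In some stretches all members lay on the same side of 0. In the leading stretch, 101764 to 101767, 3 members lay below 0 and 1 above. All 15 members from 70209 to 70232 had log2 fold changes below 0 in stem, from -0.89 to -0.22, and none was called, the lowest adjusted p being 0.478. All 6 members from 112988 to 112995 lay above 0 in stem, from 0.32 to 0.79, and none was called. Among the 3 stretches with the highest stem level, log2 fold changes ran from -0.11 to 0.07 for 101764 to 101767, from -0.20 to -0.02 for 8276 to 8280 and from 0.02 to 0.11 for 171766 to 171770. Their adjusted p for nitrogen form was 1, and their lowest unadjusted p was 0.388. The next stretch by level, 78784 to 78787, had all 4 members below 0, from -0.44 to -0.29. Its lowest edgeR adjusted p was 0.868.

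Roots had far more nitrogen calls than stem, and a smaller share of the members than of all transcripts tested was called there. Of the 199 members 159 passed the filter on low counts in roots. Of these, 14 were called (8.81%), 9 lower and 5 higher with ammonium, against 16.4% of all 156123 root transcripts tested, 10.5% lower and 5.85% higher. The rule keeps the members low in roots, with a median root mean of 0.203 CPM over the 199. No background of that root level was taken, so the shares were not compared at like levels. The 5 higher members were of the stretch 112988 to 112995, and the 9 lower members came from 4 places by number. The count of 14 was 8 without ammonium at 400 ppm replicate 1, where 13.55% of all transcripts were called. It was 9, 9 and 8 without nitrate at 400 ppm replicates 1, 2 and 3, against 12.92%, 12.44% and 11.93% of all. Without nitrate at 720 ppm replicates 1, 2 and 3 it was 8, 9 and 9, against 12.17%, 12.46% and 12.46% of all. With a library left out, 164 to 169 members were tested rather than 159. The count was 9 with no filter on low counts, against 11.7% of all transcripts then tested, 18 by DESeq2, against 21.1% of all, and 17 by limma-voom, against 16.4% of all. The split by direction also moved. Without ammonium at 720 ppm replicate 3 it was 7 higher and 5 lower, and without each of ammonium at 400 ppm replicate 1, nitrate at 400 ppm replicate 3 and nitrate at 720 ppm replicate 1 it was 4 higher and 4 lower. Without ammonium at 400 ppm replicate 2 it was 4 higher and 8 lower, and without replicate 3 of that group 4 higher and 7 lower. Without ammonium at 720 ppm replicate 1 it was 5 higher and 6 lower, and without replicate 2 of that group 4 higher and 9 lower. Over all transcripts, each fit with a library left out called more lower than higher. The shares of all were 4.04% to 5.95% higher and 7.78% to 10.18% lower. Those without ammonium at 720 ppm replicate 3 were 4.65% higher and 8.87% lower.

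The largest falls among the members called in roots were at low levels. PpCO2_9879 had 0.0663, 0.407 and 0.0970 CPM in ammonium roots at 720 ppm, 0, 0.0907 and 0.149 CPM in ammonium roots at 400 ppm, 1.10, 1.31 and 0.747 CPM in nitrate roots at 720 ppm and 0.277, 0.461 and 1.07 CPM in nitrate roots at 400 ppm. Within each CO2 level the ammonium libraries lay below the nitrate libraries, and the values rest on 68 counts over the 6 ammonium libraries and 451 over the 6 nitrate libraries. Its log2 fold change was -2.72 (edgeR adjusted p = 0.00908, SE 0.621).

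PpCO2_9876 had 0.216, 0.407 and 0.0606 CPM in ammonium roots at 720 ppm, 0.105, 0.147 and 0.0994 CPM in ammonium roots at 400 ppm, 0.872, 0.948 and 1.07 CPM in nitrate roots at 720 ppm and 0.681, 0.554 and 0.771 CPM in nitrate roots at 400 ppm. All 6 ammonium roots lay below all 6 nitrate roots, with a log2 fold change of -2.34 (edgeR adjusted p = 0.00082, SE 0.373). All 4 members of the stretch 9875 to 9881 were called lower in roots. For PpCO2_9875 the root call (adjusted p = 0.0432) was lost in 9 of 17 alternatives, with adjusted p up to 0.0974. For PpCO2_9881 the root call (adjusted p = 0.0468) was lost in 12 of 17 alternatives, with adjusted p up to 0.114. All 3 nitrate libraries at 720 ppm, nitrate at 400 ppm replicates 2 and 3, and ammonium at 400 ppm replicates 1 and 3 and at 720 ppm replicate 3 each ended both calls when left out, and ammonium at 400 ppm replicate 2 and nitrate at 400 ppm replicate 1 each ended that of PpCO2_9881.

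The 2 largest rises among the members called in roots were also of 1 stretch. PpCO2_112993 had 1.71, 1.01 and 0.945 CPM in ammonium roots at 720 ppm, 1.18, 0.510 and 1.28 CPM in ammonium roots at 400 ppm, 0.491, 0.517 and 0.180 CPM in nitrate roots at 720 ppm and 0.485, 0.588 and 0.559 CPM in nitrate roots at 400 ppm. Only the ammonium library at 0.510 CPM fell within the nitrate range, and the log2 fold change was 1.18 (edgeR adjusted p = 0.0193, SE 0.311). PpCO2_112990 averaged 0.920 ± 0.158 CPM in ammonium roots and 0.416 ± 0.143 CPM in nitrate roots (SD, n = 6 each), without overlap. Its log2 fold change was 1.09 (edgeR adjusted p = 0.0160, SE 0.278). These 2 and both of the falls given first, PpCO2_9879 and PpCO2_9876, kept their calls under the 17 alternatives run in roots.

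PpCO2_112995, the member of that stretch with the highest level, averaged 4.51 ± 0.792 CPM in ammonium roots and 2.29 ± 0.497 CPM in nitrate roots (SD, n = 6 each). All 6 ammonium roots lay above all 6 nitrate roots, and its root log2 fold change was 0.93 (edgeR adjusted p = 0.00136, SE 0.159), called under all 17 alternatives. Of the 15 members from 70209 to 70232, 11 passed the filter in roots, 8 of these lay below 0 and 2 were called lower. Of the 6 stem calls, 5 were also called lower in roots, which is 83.3% of the stem calls and 35.7% of the 14 root calls. Of the 203 other transcripts called lower with ammonium in stem, 167 (82.3%) were also called lower in roots, so the members' share was near that of all stem calls. The libraries of the organs are separate, but they come from the same seedling pools and the 5 identifiers stand in 2 places by number.

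**Figure D5:**
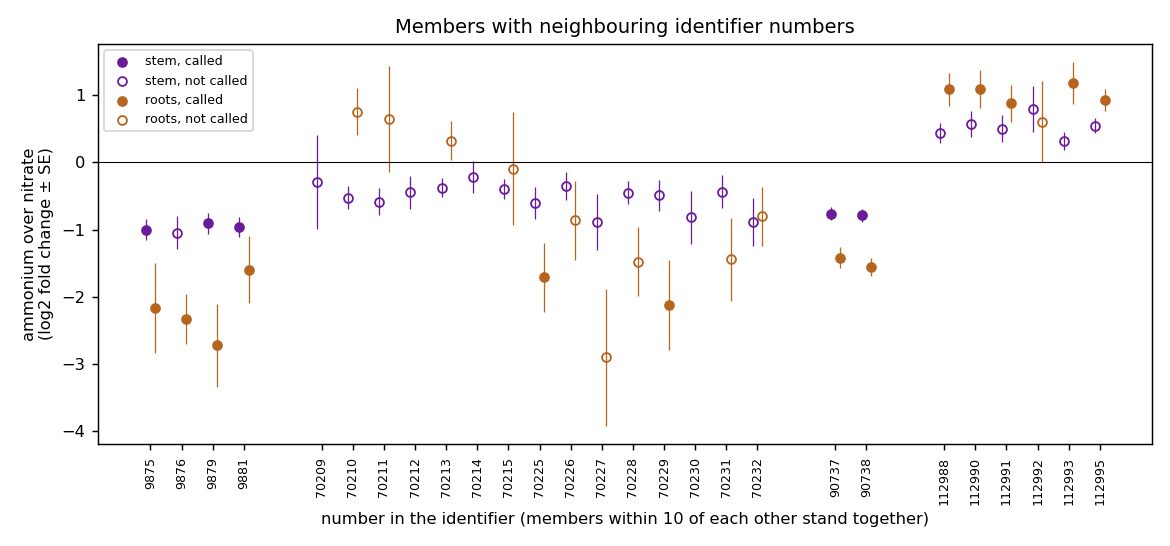
Log2 fold change of ammonium over nitrate with its SE (y axis) for the members of 4 stretches, by identifier number (x axis), in stem and in roots, with filled points called at an adjusted p under 0.05. All 4 members from 9875 to 9881 and both from 90737 to 90738 lie below 0 in both organs, all 15 from 70209 to 70232 lie below 0 in stem, and all 6 from 112988 to 112995 lie above 0 in both organs.

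In needles 140 of the 199 members passed the filter on low counts. With edgeR's quasi-likelihood test 0 were called for nitrogen form, against 0.374% of all 117123 needle transcripts tested, 0.148% lower and 0.226% higher. The rule keeps the members low in needles too, with a median needle mean of 0.142 CPM over the 199, and no background of that level was taken. An unadjusted p under 0.05 was reached by 7 members, 5% of those tested, against 7% of all. Leaving out 1 needle library gave 4 to 20 members. The 20 came without nitrate at 400 ppm replicate 3, of 150 tested, against 11347 of all 126911. The 4 came without nitrate at 720 ppm replicate 2, of 148 tested, against 7067 of all 127256. The median log2 fold change was 0.10 for the members and -0.01 for all tested. Without the 4 low-complexity needle libraries, which leaves only replicate 3 of nitrate at 400 ppm, they were 0.30 and 0.04. DESeq2 called 1, lower with ammonium, against 1.29% of all, and limma-voom 0, against 0.403% of all. PpCO2_90738, with the lowest p among the members below 0, had 1.00, 0.697 and 0.504 CPM in ammonium needles at 720 ppm, 0.654, 0.827 and 0.872 CPM in ammonium needles at 400 ppm, 1.14, 1.17 and 1.10 CPM in nitrate needles at 720 ppm and 1.40, 1.99 and 1.45 CPM in nitrate needles at 400 ppm. The 6 ammonium needles lay below the 6 nitrate needles, with a log2 fold change of -0.80 (edgeR adjusted p = 0.317, SE 0.246), which did not pass the test. PpCO2_43996, with the lowest p among the members above 0, had 0.0198 to 1.75 CPM in ammonium needles and 0 to 0.317 CPM in nitrate needles, ranges that overlap, and a log2 fold change of 2.79 (edgeR adjusted p = 0.455, SE 0.976).

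The CO2 level was compared in stem as 720 over 400 ppm, averaged over both nitrogen forms. With edgeR's quasi-likelihood test 0 of the 199 members and 0% of the 137689 transcripts were called, and the lowest adjusted p among the members was 0.246. DESeq2 called 2 members (1 higher and 1 lower), against 0.195% of all transcripts higher and 0.335% lower, and limma-voom called 0 members and 0 of all transcripts. Without ammonium at 400 ppm replicate 3, 1 member was called higher, with 0.101% of all transcripts called higher and 0.00611% lower. An unadjusted p under 0.05 was reached by 34 members (17.1%), against 5.46% of all transcripts and 9.48% of those at 1 to under 500 CPM. These 34 stand in 25 places by number. The median log2 fold change of the members was 0.09, against -0.0009 over all tested and 0.02 over those at 1 to under 500 CPM. Above 0 lay 121 members (60.8%) and below 0 lay 78, against 49.9% of all tested above 0. Without the low-complexity libraries the median of the members was 0.04, with 106 above 0.

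PpCO2_161139, with the lowest p among the members above 0, had 8.69, 12.0 and 8.38 CPM in ammonium stems at 720 ppm, 5.04, 5.53 and 3.42 CPM in ammonium stems at 400 ppm, 9.24, 8.16 and 8.44 CPM in nitrate stems at 720 ppm and 6.12, 8.14 and 5.19 CPM in nitrate stems at 400 ppm. All 6 stems at 720 ppm lay above all 6 at 400 ppm, with a log2 fold change of 0.72 (edgeR adjusted p = 0.252, SE 0.154), so it was not called. PpCO2_7999, with the lowest p among the members below 0, had 8.01, 10.7 and 10.1 CPM in ammonium stems at 720 ppm, 12.4, 16.8 and 20.04 CPM in ammonium stems at 400 ppm, 7.57, 7.19 and 11.4 CPM in nitrate stems at 720 ppm and 12.0, 14.4 and 16.4 CPM in nitrate stems at 400 ppm. All 6 stems at 720 ppm lay below all 6 at 400 ppm, with a log2 fold change of -0.75 (edgeR adjusted p = 0.246, SE 0.156). Both were the members that DESeq2 called, with adjusted p of 0.0127 and 0.00272.

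Whether the nitrogen difference in stem depended on CO2 was tested as the interaction, the log2 fold change of ammonium over nitrate at 720 ppm minus that at 400 ppm. With edgeR's quasi-likelihood test 0 members and 0% of all transcripts were called, and DESeq2 and limma-voom called 0 members. DESeq2 called 0.0341% of all transcripts and limma-voom 0. An unadjusted p under 0.05 was reached by 10 members (5.03%), against 3.08% of all transcripts and 4.4% of those at 1 to under 500 CPM. Leaving out 1 library gave 6 to 19 members. The 19 came without ammonium at 400 ppm replicate 2, against 5022 of all 148515 transcripts. Without nitrate at 400 ppm replicate 1 and at 720 ppm replicate 1 it was 6, against 3562 of 148613 and 4458 of 149045. The median size of the interaction, without its sign, was 0.36 for the members and 0.52 for all transcripts tested. For those at 1 to under 500 CPM it was 0.24, below that of the members. Without the low-complexity libraries it was 0.44 for the members and 0.55 for all tested. PpCO2_70741, with the lowest p among the members above 0, had 4.78, 6.07 and 6.38 CPM in ammonium stems at 720 ppm, 0.983, 3.34 and 1.49 CPM in ammonium stems at 400 ppm, 3.80, 4.66 and 4.66 CPM in nitrate stems at 720 ppm and 4.57, 4.48 and 2.81 CPM in nitrate stems at 400 ppm. With ammonium all 3 libraries at 720 ppm lay above all 3 at 400 ppm, while with nitrate they overlapped. The interaction was 1.48 on the log2 scale (edgeR adjusted p = 1, SE 0.499).

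PpCO2_21906, with the lowest p among the members below 0, had 1.09, 0.407 and 0.591 CPM in ammonium stems at 720 ppm, 2.00, 2.16 and 1.49 CPM in ammonium stems at 400 ppm, 2.02, 1.25 and 0.881 CPM in nitrate stems at 720 ppm and 0.830, 0.670 and 0.786 CPM in nitrate stems at 400 ppm. Both nitrogen forms thus had CO2 levels that did not overlap, in opposite directions, and the interaction was -2.23 (edgeR adjusted p = 1, SE 0.683). Over all transcripts tested 60.3% had an interaction above 0. In the leading stretches the interaction was above 0 for all 5 members from 8276 to 8280 and all 5 from 171766 to 171770, and below 0 for all 4 from 101764 to 101767 and all 15 from 70209 to 70232. It was mixed from 78784 to 78787, with 3 below 0 and 1 above, and from 112988 to 112995, with 3 below and 3 above. In these stretches the adjusted p was 1 and the lowest unadjusted p 0.0408, reached in the stretch 70209 to 70232.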

How the data were processed

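The values are raw counts per transcript identifier, whole numbers that the authors deposited in a single table for all 36 libraries, whose columns were matched to samples by name. The submitters' processing notes name bcl2fastq, which turns base calls into reads. Which aligner, counter and assembly were used, and how reads matching several identifiers were counted, was not given in the sources used here. Per the labels' protocols, libraries were made with TruSeq kits and read as 150 bp pairs, but that text names root RNA alone. The treatment text of the labels tells of a root experiment at other doses, so the design was taken from titles, characteristics and the series design. The labels call the replicates biological. No pair of replicates agreed within sampling noise, with a chi-square per degree of freedom of 104 to 860 at 100 CPM or more.

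CPM was the count over the library total. The members and all lists were chosen with earlier results of these data known. For each organ the 12 libraries were fitted with edgeR 4.0.16 in R 4.3.3, with a mean for each of the 4 groups (8 residual degrees of freedom), the filterByExpr filter (minimum count 10), TMM scaling and the two-sided robust quasi-likelihood F-test, adjusted by Benjamini-Hochberg over all transcripts tested in the organ and called at an adjusted p under 0.05. The 5 contrasts were nitrogen form in each of the 3 organs, and CO2 and the interaction in stem. The fitting was tested on simulated data. Alternatives were DESeq2's size factors, no filter, DESeq2 1.42.0, limma 3.58.1 (voom), the replicate number as a block, leaving out the low-complexity libraries and leaving out each library. The summed levels, the correlations within stretches and the steadiest members without the low-complexity libraries were added after seeing the data. Intervals and limits of 3 counts cover counting error only.

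The transcripts named were, by rule, the 4 members with the highest stem mean, the 2 called members with the largest change in each direction of each contrast (where a direction had none, the member with the lowest p), the 2 largest and the 2 smallest SDs over the stem libraries, and the transcripts next to each threshold. No member was at 0 counts in all needle and root libraries, where the rule would have named 2. PpCO2_90738, PpCO2_9875, PpCO2_9881 and PpCO2_112995 are also given in organs where the rule did not name them. Runs and stretches of numbers were formed after the identifiers were seen.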

Additional observations from a re-analysis of the deposited data

How the results depend on the processing

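The rule found 199 members. With over 4 times both other organs it found 668, with over 16 times 77, with TMM scaling 151, with organ medians 206 (181 of them shared) and without the low-complexity libraries 199 (178 shared). Leaving out replicate 1, 2 or 3 of every group gave 199 to 208 members.

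In stem, 6 members were called for nitrogen form. DESeq2 called 12, a fit without the low-complexity libraries 2, and leaving out each library gave 4 to 11. For CO2 the count of 0 was 2 with DESeq2 and 0 to 1 without each library. The interaction gave 0 under every alternative run. In needles the count of 0 was 1 with DESeq2 and 0 without each library. In roots the count of 14 was 9 with no filter on low counts and 8 to 13 without each library. Without each library 11.93% to 16.13% of all root transcripts were called. The signs of the single-transcript log2 fold changes given with alternatives did not turn. In roots the split of 5 higher and 9 lower was 7 higher and 5 lower without ammonium at 720 ppm replicate 3. Of all root transcripts 4.65% were then called higher and 8.87% lower. Over the alternatives the members' median log2 fold change for nitrogen form ran from -0.18 to -0.02 in stem, from -0.0007 to 0.30 in needles and from -0.16 to 0.20 in roots, that for CO2 from 0.04 to 0.14, and the median interaction from -0.20 to 0.02. The cause of these differences was not tested, except that leaving out libraries leaves fewer samples. No root library was of low complexity, so that alternative gives no value there.

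The labels do not say that a replicate number marks anything shared between groups, and the correlations did not all exceed 0.1, so the numbers were not taken as pairs. Deviations of libraries with the same number correlated from -0.0975 to 0.185 in stem, -0.0684 to 0.147 in needles and -0.0687 to 0.128 in roots, and 7, 5 and 9 of the 12 libraries correlated best with their own number, which is a hint from the data of something shared and not the design. With the replicate block, 6 members were called for nitrogen form in stem, 0 for CO2, 0 for the interaction, 0 in needles and 10 in roots, of which 4 were higher and 6 lower. Of all transcripts the block fit called 0.26% for nitrogen form in stem, 0 for CO2 and 0 for the interaction. It called 0.441% of all in needles and 16.76% in roots, 5.92% higher and 10.84% lower. The root share of all without the block was 16.36%.

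Members near 1 CPM in stem and most members in needles and roots rest on few counts.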
